A study of Mus musculus with 8 samples.

Results

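Wnt signaling reaches a cell through a small set of secreted and cell-surface proteins, and the genes for these proteins were read here in B16F10, a mouse melanoma cell line. The set held 44 of the 55414 genes in the expression table, taken by a rule on the gene symbol, and was chosen with earlier results of these data known. It comprised 19 Wnt ligands, 10 Frizzled receptors, 3 Lgr receptors, 4 R-spondins, 4 Dickkopf proteins and 4 secreted Frizzled-related proteins. RNA was sequenced from 4 groups of 2 libraries each. WT cells, with no vector or editing named in the labels, and CypD KO cells, in which Ppif had been disrupted with CRISPR/Cas9, were kept for 24 hours in 21% O2. Control cells, stably carrying pcDNA, and the stable cells labelled CypD OE, made to overexpress Ppif, were kept for 24 hours in 1% O2. Ppif encodes cyclophilin D (CypD), a peptidyl-prolyl isomerase of the mitochondrial matrix that regulates the permeability transition pore. The CypD KO cells were clones that survived puromycin and the pcDNA-transfected cells clones that survived G418. How many clones each edited or transfected line stood for, and whether the 2 libraries of a group came from separate cultures, was not given in the sources used here, so that p-values measure only the spread between these libraries, which may be technical.

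A Wnt ligand is a lipid-modified secreted protein that binds a Frizzled receptor together with the co-receptor Lrp5 or Lrp6. When the signal passes through beta-catenin, that protein escapes degradation and acts with TCF and LEF factors on transcription, whereas other branches steer cell polarity and movement. R-spondins bind Lgr receptors and thereby keep Frizzled receptors on the surface, Dickkopf proteins bind the co-receptors, and secreted Frizzled-related proteins bind the ligands themselves. In the melanocyte lineage, Wnt signaling is known for its part in the specification of melanocytes from the neural crest and for acting on Mitf, the master transcription factor of pigment cells.

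Values are given in TPM, transcript abundances scaled to a fixed total per library and corrected for transcript length, so that levels may be set side by side between genes. Differences between groups are given as log2 fold changes of TPM + 1 from limma with their standard errors (SE), and a gene was called at a Benjamini-Hochberg adjusted p under 0.05 over the 13526 genes that reached 1 TPM in at least 2 libraries. Because 1 is added, this scale understates the change of low genes. From the steps between low values, the libraries held about 25600000 to 29900000 fragments, and 1 fragment was worth 0.082 to 0.098 TPM for a transcript of 1000 effective bases. Ppif read 50.68 and 49.99 TPM in WT, against 10.44 and 12.11 TPM in CypD KO (log2 fold change -2.07, SE 0.07, adjusted p = 3.81e-06). Its Control values were 44.59 and 42.25 TPM, against 50.29 and 49.28 TPM in the CypD OE-labelled libraries, 1.15-fold higher with an adjusted p of 0.0794 (0.0325 without CypD KO replicate 1 and 0.033 without CypD KO replicate 2, which change the shared estimate of the spread), so the label of this group was not borne out by a call on its target gene. That reading is of RNA only: the study reports that CypD overexpression in the selected clones was checked by western blot, which measures protein. None of the 6 melanocyte-lineage markers looked at was below 1 TPM in all libraries. Their summed level was 15478.1 and 15384.3 TPM in WT, 12306.9 and 12167.5 TPM in CypD KO, 20067.1 and 20612.5 TPM in Control, and 13554.4 and 13396.8 TPM in the CypD OE-labelled libraries. Tyr, 1 of these markers, was instead higher in CypD KO, at 167.01 and 147.1 TPM against 37.44 and 41.25 TPM in WT. Among markers of other cells, the fibroblast gene Postn stood at 34.77 and 31.22 TPM in CypD KO against 8.04 and 8.07 TPM in WT, whereas Col1a2, of the same list, went the other way, at 1.09 and 2.17 TPM against 9.03 and 6.87 TPM. The macrophage-rich gene Cd68 stood at 21.85 and 23.33 TPM against 3.75 and 3.45 TPM. The summed level of the 6 fibroblast markers was 34.16 to 37.19 TPM in CypD KO and 9.23 to 20.97 TPM in the other groups, the sum in CypD KO being mostly Postn. That of the 5 immune markers was 22.14 to 23.55 TPM against 1.2 to 5.12 TPM, the sum in CypD KO being mostly Cd68. Dcn, Cd3e and Adgre1 were at 0 in every library, Lum did not exceed 0.08 TPM, and Ptprc did not exceed 0.02 TPM.

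Of the 44 genes, 14 reached the level needed for a test and 30 did not. The tested genes were Wnt9a, the Frizzled receptors Fzd1 to Fzd7 and Fzd9, all of Lgr4, Lgr5 and Lgr6, the Dickkopf gene Dkk3, and Sfrp4, a secreted Frizzled-related protein. No R-spondin was among them. A further 11 genes were listed at 0 in all 8 libraries: the ligands Wnt2, Wnt3a, Wnt5a, Wnt7a, Wnt7b, Wnt8a and Wnt9b, the receptor Fzd8, the Dickkopf genes Dkk2 and Dkk4, and Sfrp2. Another 14 genes rose above 0 somewhere but nowhere above 0.12 TPM, at most about 10 fragments in a library. These were Wnt1, Wnt3, Wnt4, Wnt8b, Wnt10b, Wnt11, Wnt16, Fzd10, Dkk1, Rspo1, Rspo2, Rspo4, Sfrp1 and Sfrp5. At this depth, neither list shows that a gene is silent.

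**Figure D1:**
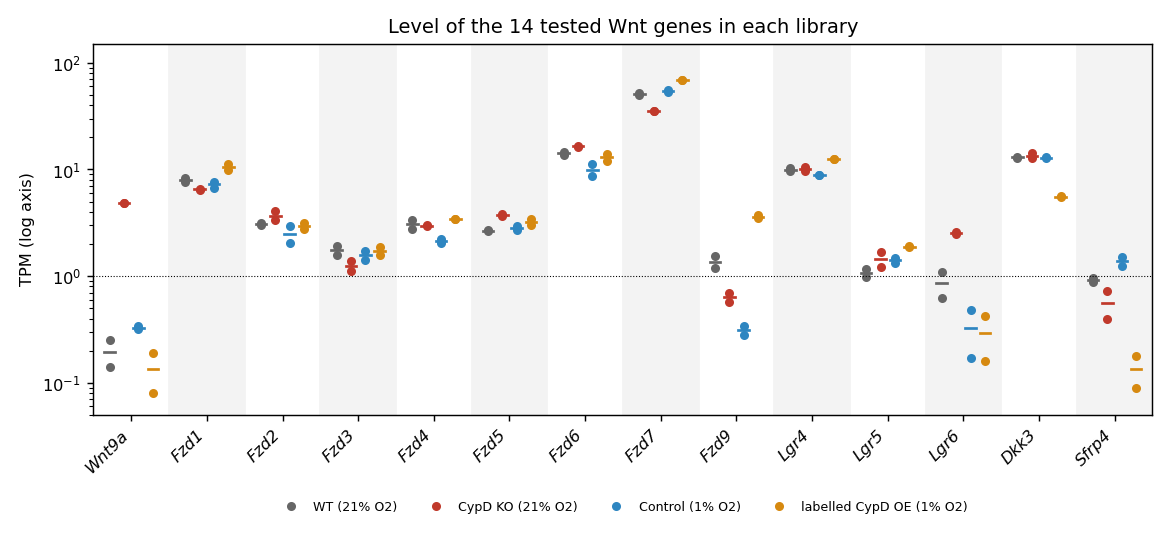
TPM (log axis) of the 14 tested genes in each of the 8 libraries; points are libraries, short bars are group means, colors are groups and the dotted line marks 1 TPM. Fzd7 is the highest gene in each library, Wnt9a stands above 1 TPM in CypD KO only, and Fzd9 and Dkk3 part the CypD OE-labelled libraries from the Control libraries.

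In CypD KO against WT, 5 of the 14 tested genes were called (35.7%), 3 higher and 2 lower. Over all tested genes the shares were 48.4% in either direction, 30.1% higher and 18.4% lower, so the set was not richer in calls than the transcriptome. In the CypD OE-labelled libraries against Control, 7 of 14 were called (50%), 5 higher and 2 lower, beside 37.4% of all genes, with 19.0% higher and 18.3% lower. The third comparison, Control against WT, called 2 of 14, both lower, beside 24.2% of all genes in either direction and 12.1% lower. In that comparison, 1% O2 and the vector with its selection cannot be told apart, and its libraries are shared with the other comparisons. Median log2 fold changes over the 14 genes came to 0.03, 0.23 and -0.11 in these comparisons, beside 0.09, 0.00 and 0.01 over all tested genes. Wnt9a passed the filter only through CypD KO, Sfrp4 only through Control, and Fzd9 only through WT and the CypD OE-labelled libraries, while Lgr6 reached 1 TPM in both CypD KO libraries and in 1 WT library, so these counts are a description of the genes that passed. The 5 calls in CypD KO came to 2 without WT replicate 1 or CypD KO replicate 1 and to 3 without CypD KO replicate 2, and the 5 higher calls in the CypD OE-labelled libraries came to 3 without CypD OE replicate 1. The 2 calls in Control against WT came to 0 without WT replicate 1 and to 1 without WT replicate 2, CypD KO replicate 1, CypD KO replicate 2 or Control replicate 2.

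The members that moved most were Wnt9a, Fzd9, Dkk3, Sfrp4 and Lgr6. Since 4 of the 8 libraries came from cells held in low oxygen and the set belongs to a pathway with its own DNA motif, the 250 bases before the annotated start of each gene were read for the core of the hypoxia response element (ACGTG or GCGTG) and for the TCF/LEF motif (ATCAAAG or TTCAAAG), on both strands. The sequences of 3 of them, Wnt9a, Fzd9 and Lgr6, are given 5′ to 3′ on the strand of the gene, in build GRCm39, with the hypoxia response cores in capitals, where a match on the opposite strand reads CACGT or CACGC. That of Dkk3 is not shown, because it lies inside other annotated Dkk3 transcripts, and it held neither motif. The 3 genes shown each held a core and are not a sample of the genes that moved.
Wnt9a, chr11:59197317-59197566, plus strand: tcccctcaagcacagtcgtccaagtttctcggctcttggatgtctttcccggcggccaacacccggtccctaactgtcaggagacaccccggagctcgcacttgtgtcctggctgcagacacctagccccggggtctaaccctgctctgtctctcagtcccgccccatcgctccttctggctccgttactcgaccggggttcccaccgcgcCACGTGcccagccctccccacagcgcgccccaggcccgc
Fzd9, chr5:135280085-135280334, minus strand: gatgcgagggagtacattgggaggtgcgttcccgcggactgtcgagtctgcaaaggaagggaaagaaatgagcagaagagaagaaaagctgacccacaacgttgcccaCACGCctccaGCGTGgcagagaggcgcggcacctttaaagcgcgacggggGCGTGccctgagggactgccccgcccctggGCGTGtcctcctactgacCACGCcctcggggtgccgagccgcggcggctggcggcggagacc
Lgr6, chr1:135033101-135033350, minus strand: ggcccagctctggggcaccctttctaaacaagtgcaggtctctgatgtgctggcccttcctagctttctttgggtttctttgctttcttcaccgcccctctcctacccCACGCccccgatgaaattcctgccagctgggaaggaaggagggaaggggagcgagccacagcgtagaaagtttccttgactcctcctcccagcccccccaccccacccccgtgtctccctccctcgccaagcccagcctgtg
The Wnt9a sequence held a single CACGTG, which counts once on each strand, 34 to 39 bases before the start. That of Fzd9 held 5 cores, 3 on the gene's strand and 2 on the other, and that of Lgr6 held 1, on the other strand. None of these 3 held a TCF/LEF motif. Such cores are common: 41.3% of 21627 promoters of this length held at least 1, as did 22 of the 44 genes (50%). The TCF/LEF motif was present in 7.52% of all promoters and in 2 of the 44 (4.55%). A match is a run of letters and says nothing of binding.

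Wnt9a, a ligand known from joint and bone development, was the only Wnt ligand above 1 TPM in any library. The gene lies on chromosome 11 at 59197567-59224378 (GRCm39, plus strand, ENSMUSG00000000126). Its values were 0.14 and 0.25 TPM in WT, 4.9 and 4.89 TPM in CypD KO, 0.34 and 0.32 TPM in Control, and 0.19 and 0.08 TPM in the CypD OE-labelled libraries. Both CypD KO libraries were above the other 6, with no overlap. Wnt9a entered the test only through the CypD KO libraries, where it is high. In bulk libraries, more cells that express a gene and more of its RNA per cell cannot be told apart. The mean in CypD KO was 4.89 ± 0.00707 TPM (SD, n = 2) against 0.195 ± 0.0778 TPM (SD, n = 2) in WT, a 25.1-fold difference (log2 fold change 2.30, SE 0.16, adjusted p = 5.82e-05). About 364 fragments in CypD KO stood against about 14 in WT, from which the ratio had a 95% exact interval of 14.2 to 44.7 for counting error alone. In the CypD OE-labelled libraries the log2 difference from Control was -0.23 (SE 0.16, adjusted p = 0.311), on 3.2 to 12 fragments a library. Postn and Cd68, given above, were also higher in CypD KO and Col1a2 was lower, and the part of other cells in the Wnt9a level was not tested.

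Genes near Wnt9a were also read, a choice made after its values were seen. Wnt3a, the ligand gene that ends 16 kb before Wnt9a begins, was listed at 0 in all 8 libraries. Of 11 tested genes within 200 kb of Wnt9a, 3 were called higher and 2 lower in CypD KO, beside 30.1% and 18.4% of all tested genes. Their log2 fold changes ran from -0.26 to 0.73, beside 2.30 for Wnt9a itself.

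The remaining ligands were scarce in every group. Wnt5b, a ligand of the branches that do not use beta-catenin, stood at 0.28 and 0.61 TPM in WT, 0.13 and 0.62 TPM in CypD KO, 0.66 and 0.19 TPM in Control, and 0.59 and 0.85 TPM in the CypD OE-labelled libraries. Its libraries differed within groups by as much as between them. Wnt6 read 0.24 and 0.27 TPM in WT, 0 and 0.15 TPM in CypD KO, 0.39 and 0.76 TPM in Control, and 0 and 0.13 TPM in the CypD OE-labelled libraries. Both of its Control libraries were above the other 6, on about 10 and 21 fragments, and Wnt6 was below the level for the main test. Wnt2b read 0.2 and 0.25 TPM in WT, 0.47 and 0.32 TPM in CypD KO, 0.22 and 0.32 TPM in Control, and 0.45 and 0.31 TPM in the CypD OE-labelled libraries. Wnt10a read 0.2 and 0.13 TPM in WT, 0.08 and 0 TPM in CypD KO, 0.43 and 0.04 TPM in Control, and 0.22 and 0.04 TPM in the CypD OE-labelled libraries. For both genes the Control and CypD OE libraries overlapped, while the WT and CypD KO libraries did not. No ligand other than Wnt9a reached the level for a test, and no untested gene of the set had more than about 29 fragments in a library.

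Summed over the 19 ligand genes, the level was 1.1 and 1.64 TPM in WT, 5.9 and 6.25 TPM in CypD KO, 2.12 and 1.8 TPM in Control, and 1.59 and 1.47 TPM in the CypD OE-labelled libraries. Wnt9a made up 83.1% and 78.2% of that sum in CypD KO and 5.44% to 17.8% in the other libraries. Without Wnt9a the sum was 1 and 1.36 TPM in CypD KO and 0.96 and 1.39 TPM in WT, so the groups overlapped. The higher ligand sum in CypD KO was thus held by Wnt9a.

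**Figure D2:**
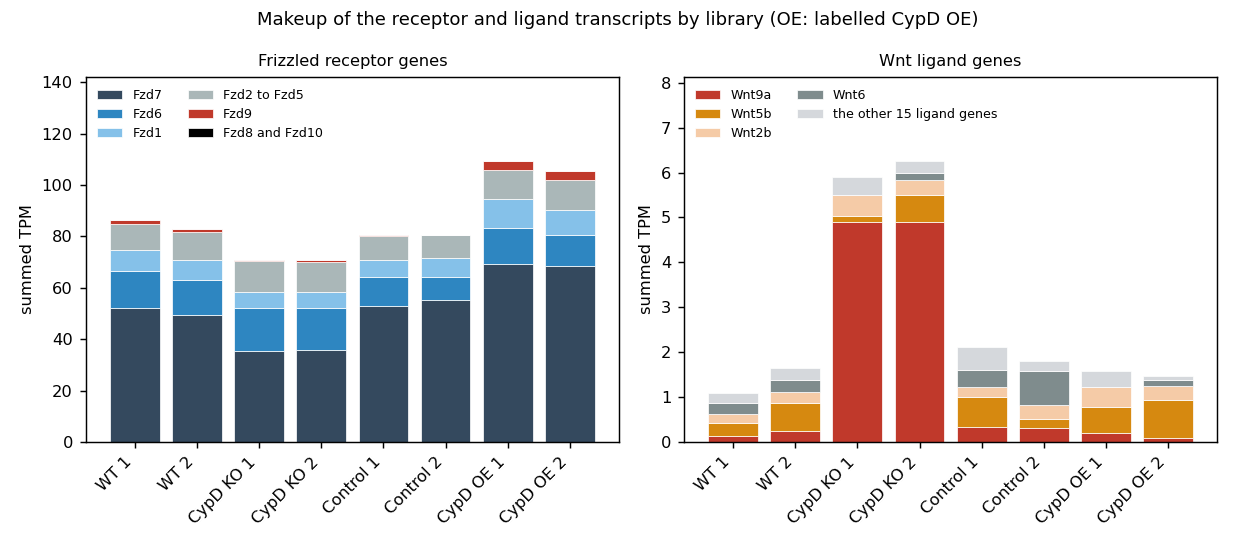
Summed TPM of the 10 Frizzled genes (left) and of the 19 Wnt ligand genes (right) in each library, each bar split by gene. Fzd7 takes between 50% and 68.6% of the Frizzled sum, and Wnt9a takes 83.1% and 78.2% of the ligand sum in the CypD KO libraries.

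Frizzled genes were the most abundant class, and Fzd7, a receptor that couples to beta-catenin in many stem and tumor cells, led them in every library. Fzd7 stood at 52.05 and 49.42 TPM in WT, 35.44 and 35.63 TPM in CypD KO, 52.93 and 55.38 TPM in Control, and 69.31 and 68.48 TPM in the CypD OE-labelled libraries. The CypD KO libraries were the lowest and those labelled CypD OE the highest, with no overlap between any of the 4 groups. In CypD KO it fell by 0.50 on the log2 scale (SE 0.05, adjusted p = 1.91e-04), from 50.7 ± 1.86 to 35.5 ± 0.134 TPM (SD, n = 2 each). In the CypD OE-labelled libraries it was higher than in Control, at 68.9 ± 0.587 against 54.2 ± 1.73 TPM (log2 fold change 0.34, SE 0.05, adjusted p = 0.00169). Control and WT did not differ past the threshold (log2 fold change 0.09, SE 0.05, adjusted p = 0.2). A long noncoding gene on the other strand, Gm26813, reached 1.57 TPM, and whether counting used the strand was not given in the sources used here. Of the 14 tested genes, 10 overlap an annotated gene on the opposite strand, among them Wnt9a, Fzd9 and Lgr6. Whether reads from that strand entered their levels was not tested.

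Fzd9, a single-exon gene for a Frizzled receptor known from bone and brain, was called in all 3 comparisons. Its values were 1.54 and 1.2 TPM in WT, 0.57 and 0.7 TPM in CypD KO, 0.28 and 0.34 TPM in Control, and 3.5 and 3.71 TPM in the CypD OE-labelled libraries. The 4 groups did not overlap, and the order was Control, CypD KO, WT and then the CypD OE-labelled libraries. Fzd9 entered the test only through the WT and the CypD OE-labelled libraries, where it is high. Between the latter and Control the means were 3.6 ± 0.148 and 0.31 ± 0.0424 TPM (SD, n = 2 each), an 11.6-fold difference (log2 fold change 1.81, SE 0.16, adjusted p = 2.43e-04). From about 183 and 14 fragments, the exact counting interval of this ratio was 6.71 to 21.5. Control was also below WT (log2 fold change -0.85, SE 0.16, adjusted p = 0.00969), a call lost without WT replicate 1 (-0.75, adjusted p = 0.0527). CypD KO was below WT by a smaller step (log2 fold change -0.53, SE 0.16, adjusted p = 0.0286). This last call was lost without WT replicate 1 (-0.43, adjusted p = 0.128), without CypD KO replicate 1 (-0.48, adjusted p = 0.101), without CypD KO replicate 2 (-0.59, adjusted p = 0.0566) and when only the 4 libraries compared were fitted (adjusted p = 0.0602). Fzd9 lies on chromosome 5 at 135277792-135280084 (GRCm39, minus strand). The 11 tested genes within 200 kb of it had log2 fold changes of -0.68 to 0.61 between the CypD OE-labelled libraries and Control. Of these, 2 were called higher and 2 lower, beside 19.0% and 18.3% of all tested genes. In CypD KO against WT, 3 were called higher and 4 lower (-0.71 to 0.46), beside 30.1% and 18.4%. In Control against WT, 1 was called higher and none lower (-0.42 to 0.80), beside 12.1% each way.

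Fzd1 and Fzd4, receptors that can act through beta-catenin, were also higher in the CypD OE-labelled libraries. For Fzd1 the values were 8.24 and 7.7 TPM in WT, 6.47 and 6.54 TPM in CypD KO, 6.76 and 7.7 TPM in Control, and 11.29 and 9.95 TPM in the CypD OE-labelled libraries. The last pair was above the other 6 libraries (log2 fold change from Control 0.50, SE 0.10, adjusted p = 0.00981), but the call was lost without Control replicate 1 (0.42, adjusted p = 0.0547) or without CypD OE replicate 1 (0.41, adjusted p = 0.0608). Between CypD KO and WT, Fzd1 differed by -0.26 (SE 0.10, adjusted p = 0.0825), a value that passed the threshold after median-of-ratios rescaling of the libraries (-0.36, adjusted p = 0.0227). Fzd4, the receptor that also binds norrin, read 2.74 and 3.38 TPM in WT, 3 and 2.93 TPM in CypD KO, 2.06 and 2.24 TPM in Control, and 3.46 and 3.41 TPM in the CypD OE-labelled libraries. The Control pair was the lowest of the 4 groups. Its difference from the CypD OE-labelled libraries was called (log2 fold change 0.49, SE 0.13, adjusted p = 0.0239), yet no longer so with any 1 of those 4 libraries left out: the adjusted p was 0.0978 without Control replicate 1, 0.0638 without Control replicate 2, 0.0914 without CypD OE replicate 1 and 0.0844 without CypD OE replicate 2. Fzd4 differed from WT by -0.36 in Control (SE 0.13, adjusted p = 0.0896) and by -0.03 in CypD KO (SE 0.13, adjusted p = 0.872).

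Fzd6, a receptor of the planar cell polarity branch, was the next most abundant Frizzled gene after Fzd7. It read 14.62 and 13.62 TPM in WT, 16.57 and 16.38 TPM in CypD KO, 11.17 and 8.65 TPM in Control, and 14.04 and 11.97 TPM in the CypD OE-labelled libraries. The Control pair was again the lowest, and was called lower than WT (log2 fold change -0.48, SE 0.13, adjusted p = 0.0374). That call did not hold without WT replicate 1 (-0.43, adjusted p = 0.145), WT replicate 2 (-0.53, adjusted p = 0.0943), Control replicate 2 (-0.31, adjusted p = 0.141), CypD KO replicate 1 (adjusted p = 0.0677) or CypD KO replicate 2 (adjusted p = 0.0678). Fzd6 differed by 0.21 between CypD KO and WT (SE 0.13, adjusted p = 0.223) and by 0.37 between the CypD OE-labelled libraries and Control (SE 0.13, adjusted p = 0.0639), the latter passing the threshold without Control replicate 1 (0.53, adjusted p = 0.0236).

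Fzd5 stood at 2.64 and 2.69 TPM in WT, 3.63 and 3.84 TPM in CypD KO, 2.68 and 2.93 TPM in Control, and 3.01 and 3.4 TPM in the CypD OE-labelled libraries. Its CypD KO pair was the highest. The difference from WT was 0.37 (SE 0.12, adjusted p = 0.0405), and no call was left with any 1 of the 8 libraries left out, the adjusted p running from 0.0524 without CypD OE replicate 1 to 0.14 without CypD KO replicate 2. Fzd2 read 3.03 and 3.14 TPM in WT, 4.04 and 3.35 TPM in CypD KO, 2.92 and 2.05 TPM in Control, and 2.76 and 3.14 TPM in the CypD OE-labelled libraries. Fzd3, best known from axon guidance, read 1.57 and 1.92 TPM in WT, 1.12 and 1.38 TPM in CypD KO, 1.71 and 1.43 TPM in Control, and 1.87 and 1.58 TPM in the CypD OE-labelled libraries. Neither Fzd2 nor Fzd3 was called in any comparison, with log2 fold changes between -0.29 and 0.20.

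The summed Frizzled level was 86.4 and 83.1 TPM in WT, 70.8 TPM in both CypD KO libraries, 80.5 and 80.7 TPM in Control, and 109 and 106 TPM in the CypD OE-labelled libraries. The share of Fzd7 in this sum was 60.2% and 59.5% in WT, 50% and 50.3% in CypD KO, 65.7% and 68.6% in Control, and 63.4% and 64.8% in the CypD OE-labelled libraries. The CypD KO libraries thus had both the smallest Frizzled sum and the smallest part of it from Fzd7. Fzd9, at most 3.51% of the sum, added little to the total in any library.

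**Figure D3:**
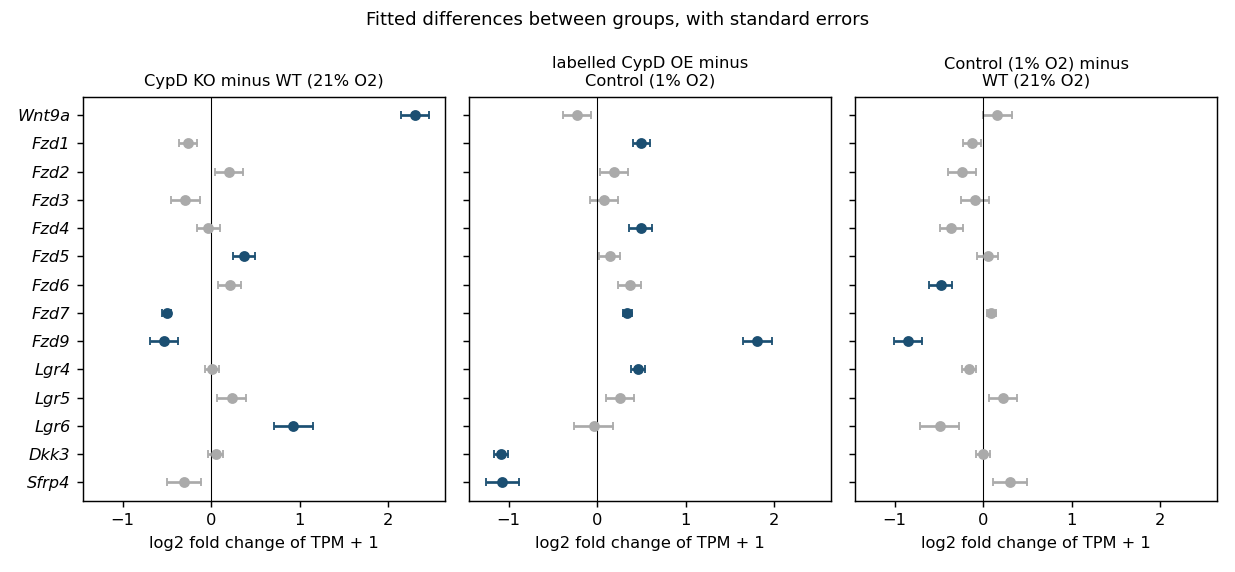
Log2 fold change of TPM + 1 (x axis) of the 14 tested genes in the 3 comparisons, with standard errors as bars; dark points passed an adjusted p of 0.05 and gray points did not. Wnt9a at 2.30 in CypD KO against WT and Fzd9 at 1.81 in the CypD OE-labelled libraries against Control lie farthest to the right, and Dkk3 and Sfrp4 lie near -1 in the latter comparison.

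Lgr4, Lgr5 and Lgr6 are the receptors for R-spondins, and Lgr5 and Lgr6 are known as stem cell markers of epithelia. Lgr4 read 9.6 and 10.37 TPM in WT, 10.48 and 9.66 TPM in CypD KO, 8.79 and 8.84 TPM in Control, and 12.6 and 12.4 TPM in the CypD OE-labelled libraries. The last pair was the highest, 1.42-fold above Control (log2 fold change 0.46, SE 0.08, adjusted p = 0.0051), while CypD KO and WT overlapped (log2 fold change 0.01, SE 0.08, adjusted p = 0.926). Lgr6 read 0.62 and 1.1 TPM in WT, 2.59 and 2.46 TPM in CypD KO, 0.17 and 0.48 TPM in Control, and 0.16 and 0.42 TPM in the CypD OE-labelled libraries. Both CypD KO libraries were above the other 6, and the Control libraries overlapped with those labelled CypD OE. The CypD KO mean was 2.52 ± 0.0919 TPM against 0.86 ± 0.339 TPM in WT (SD, n = 2 each), 2.94-fold higher (log2 fold change 0.93, SE 0.22, adjusted p = 0.0119), although Lgr6 entered the test only with the CypD KO libraries, where it is high. That call was lost without WT replicate 1 (0.75, adjusted p = 0.0643), without CypD KO replicate 1 (0.91, adjusted p = 0.0547), and with 0.1 in place of 1 added to TPM (1.5, adjusted p = 0.0684). Lgr5 read 1.16 and 0.98 TPM in WT, 1.68 and 1.21 TPM in CypD KO, 1.48 and 1.34 TPM in Control, and 1.91 and 1.86 TPM in the CypD OE-labelled libraries. Its log2 fold changes of 0.22 to 0.26 in the 3 comparisons were not called (adjusted p = 0.252 to 0.37).

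The ligands of these receptors were nearly absent from the libraries. Rspo3, the R-spondin with the highest level, read 0.06 and 0.28 TPM in WT, 0.63 and 0.22 TPM in CypD KO, 0.3 and 0.22 TPM in Control, and 0.24 and 0.11 TPM in the CypD OE-labelled libraries. Its highest value came from 1 CypD KO library, the other lying within the WT range. The 4 R-spondin genes together summed to 0.09 to 0.69 TPM, beside 10.4 to 14.8 TPM for the 3 Lgr genes.

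Dkk3 and Sfrp4 were the secreted modulators of the set that reached the level for a test. Both were lower in the CypD OE-labelled libraries than in Control. Dkk3, a divergent member of the Dickkopf family with no settled action on the co-receptors, read 13.09 and 12.81 TPM in WT, 14.17 and 12.7 TPM in CypD KO, 12.8 and 13.08 TPM in Control, and 5.61 and 5.52 TPM in the CypD OE-labelled libraries. The other 6 libraries lay close together and the pair labelled CypD OE far below them, at 5.56 ± 0.0636 against 12.9 ± 0.198 TPM in Control (SD, n = 2 each). Dkk3 fell by 1.09 on the log2 scale (SE 0.08, adjusted p = 1.31e-04). Its log2 fold change was 0.05 in CypD KO against WT (SE 0.08, adjusted p = 0.665). Sfrp4 read 0.89 and 0.96 TPM in WT, 0.73 and 0.4 TPM in CypD KO, 1.25 and 1.51 TPM in Control, and 0.09 and 0.18 TPM in the CypD OE-labelled libraries. The Control pair was the highest and the pair labelled CypD OE the lowest, with no overlap. Sfrp4 entered the test only through the Control libraries, where it is high. Sfrp4 fell by 1.07 on the log2 scale between Control and the CypD OE-labelled libraries (SE 0.19, adjusted p = 0.00462), where about 6 fragments stood against about 53 and the ratio of the levels was 0.101 with an exact counting interval of 0.0355 to 0.235. CypD KO differed from WT by -0.31 (SE 0.19, adjusted p = 0.218) and Control from WT by 0.30 (SE 0.19, adjusted p = 0.284).

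Set side by side, the comparison in 21% O2 and the one in 1% O2 both called Fzd7 and Fzd9, lower in CypD KO and higher in the CypD OE-labelled libraries, and the difference between these differences was not tested. Wnt9a, Lgr6 and Fzd5 were called in CypD KO against WT only, and Fzd1, Fzd4, Lgr4, Dkk3 and Sfrp4 in the CypD OE-labelled libraries against Control only. Whether the 2 comparisons differ for those 8 genes was not tested either. Oxygen, vector and selection also differ between the 2 comparisons.

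Around these genes, 94 other symbols of the pathway were read from 8 lists, of which 93 were in the table and 65 were tested. The symbol not found, Gpr124, is an older name of Adgra2, which stood in the same list and was tested. In CypD KO against WT, 24 of the tested genes were called higher and 18 lower (64.6%, beside 48.4% of all genes). Their median log2 fold change was 0.02, beside 0.09 over all tested genes. After median-of-ratios rescaling of the libraries, 20 were called higher and 25 lower. In the CypD OE-labelled libraries against Control, 25 were called higher and 10 lower (53.8%, beside 37.4%), with a median of 0.09, and in Control against WT 7 and 15 (33.8%, beside 24.2%), with a median of -0.04. Wls, the carrier that brings Wnt proteins to the surface, stood at 131 ± 1.73 TPM in WT and 187 ± 7.77 TPM in CypD KO (log2 fold change 0.51, SE 0.05, adjusted p = 3.37e-04), and was lower in the CypD OE-labelled libraries than in Control (-0.33, SE 0.05, adjusted p = 0.00351). Tmed5, a trafficking protein of the early secretory route, was higher in the CypD OE-labelled libraries (0.29, SE 0.04, adjusted p = 0.00169). Porcn, which attaches the lipid to Wnt ligands, did not exceed 0.61 TPM in any library. Wnt9a and Wls were thus both higher in CypD KO.

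The co-receptors Lrp5 and Lrp6 were higher in both comparisons. The log2 fold changes of Lrp5 were 0.46 in CypD KO (SE 0.08, adjusted p = 0.00347) and 0.50 in the CypD OE-labelled libraries (SE 0.08, adjusted p = 0.00349). Those of Lrp6 were 0.26 (SE 0.07, adjusted p = 0.0165) and 0.41 (SE 0.07, adjusted p = 0.00374), the former lost without WT replicate 1 (0.20, adjusted p = 0.0883) or CypD KO replicate 1 (0.21, adjusted p = 0.0942). For the counts that follow, 30.1% of all tested genes were called higher and 18.4% lower in CypD KO. In the CypD OE-labelled libraries these shares were 19.0% and 18.3%. Of the 6 tested co-receptors and other receptors, 5 were higher in the CypD OE-labelled libraries and none lower. Among them were Adgra2 (0.56), Tspan12 (0.54) and Reck (0.51), whose products work with particular ligand and receptor pairs. The Adgra2 call ended without CypD OE replicate 1 (0.52, adjusted p = 0.05). In CypD KO, 2 were higher and 2 lower, the lower ones being Adgra2 (-1.56) and Ryk (-0.43), a Wnt receptor of another family. Ror1 did not exceed 0.05 TPM and Ror2 was at 0. Glypicans and syndecans, surface proteoglycans that hold Wnt proteins, were all higher in CypD KO for the 4 tested, with Sdc4 at 1.63, Gpc1 at 0.89 and Gpc6 at 0.49 on the log2 scale, whereas 1 of 4, Gpc6 (0.59), was higher in the CypD OE-labelled libraries. Of the 8 planar cell polarity genes tested, 3 were higher and 3 lower in CypD KO, with Prickle2 at 1.12, Vangl1 at 1.08 and Celsr2 at -0.82, and 1 was higher and 3 lower in the CypD OE-labelled libraries, with Daam1 at -0.91, Prickle2 at 0.65 and Prickle1 at -0.37.

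Among other secreted modulators, Frzb was far above the 4 secreted Frizzled-related genes of the set. Frzb is itself a secreted Frizzled-related protein, also named Sfrp3, which the choice by symbol left out. It stood at 42.28 and 41.04 TPM in WT, 12.72 and 12.09 TPM in CypD KO, 31.52 and 33.23 TPM in Control, and 18.61 and 16.09 TPM in the CypD OE-labelled libraries. It was lower in CypD KO than in WT (log2 fold change -1.67, SE 0.08, adjusted p = 1.17e-05) and lower in the CypD OE-labelled libraries than in Control (-0.87, SE 0.08, adjusted p = 3.11e-04). Igfbp4, a binding protein of insulin-like growth factors that can also block Wnt signaling, was lower in CypD KO (-0.85) and higher in the CypD OE-labelled libraries (0.69). Wif1, which binds Wnt ligands, did not exceed 0.2 TPM. Of the genes that remove Frizzled receptors from the surface, Znrf3 was lower in CypD KO (-0.68, SE 0.11, adjusted p = 0.00202) and higher in the CypD OE-labelled libraries (0.46, SE 0.11, adjusted p = 0.0144), the latter lost without Control replicate 2 (0.43, adjusted p = 0.0696) or CypD OE replicate 1 (0.38, adjusted p = 0.0824). Its relative Rnf43 did not exceed 0.16 TPM. Usp8, a deubiquitinase that can return Frizzled receptors to the surface, was higher in CypD KO (0.37, SE 0.05, adjusted p = 6.71e-04). Kremen1, a Dickkopf receptor, was called higher in CypD KO (0.36, SE 0.11, adjusted p = 0.0314), a call lost with any 1 WT or CypD KO library left out (adjusted p = 0.118 without CypD KO replicate 1, 0.0888 without CypD KO replicate 2, 0.0505 without WT replicate 1 and 0.132 without WT replicate 2).

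Inside the cell, 13 of 27 tested genes of the beta-catenin pathway were called in CypD KO, 6 higher and 7 lower (48.1%, beside 48.4% of all genes), and 13 in the CypD OE-labelled libraries, 11 higher and 2 lower (48.1%, beside 37.4%). Ctnnb1, which encodes beta-catenin, was lower in CypD KO (log2 fold change -0.44, SE 0.03, adjusted p = 2.60e-05) and was not called in the CypD OE-labelled libraries (0.04, SE 0.03, adjusted p = 0.325). Tcf7l1, a TCF factor that mostly represses, moved furthest in both, at -1.33 in CypD KO and 1.47 in the CypD OE-labelled libraries. It was joined by Pygo1 (-0.92) and Bcl9l (0.67) in CypD KO and by Ctnnbip1 (1.01) and Bcl9l (0.89) in the CypD OE-labelled libraries. Tcf7l2 was called lower in CypD KO (-0.27, SE 0.08, adjusted p = 0.0334), though not without WT replicate 1 (-0.16, adjusted p = 0.151), CypD KO replicate 1 (adjusted p = 0.106), CypD KO replicate 2 (adjusted p = 0.112), CypD OE replicate 1 (adjusted p = 0.0539) or CypD OE replicate 2 (adjusted p = 0.054).

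The last list, from general knowledge, held transcripts that beta-catenin can raise in some tissues, not each of them in many. Of the 12 tested, 6 were higher and 3 lower in CypD KO (75%, beside 48.4% of all genes). In the CypD OE-labelled libraries 4 were higher and 3 lower (58.3%, beside 37.4%). Axin2, the most general of them, read 8.04 and 7.06 TPM in WT, 6.55 and 7.25 TPM in CypD KO, 10.14 and 11.08 TPM in Control, and 2.03 and 2.63 TPM in the CypD OE-labelled libraries. The pair labelled CypD OE was the lowest (log2 fold change from Control -1.81, SE 0.13, adjusted p = 1.11e-04), while CypD KO and WT overlapped (-0.11, SE 0.13, adjusted p = 0.51). Mitf was also lower in the CypD OE-labelled libraries (-0.93, SE 0.04, adjusted p = 1.86e-05), as was Tnfrsf19 (-1.23), whereas Dusp6 was higher (0.95). In CypD KO the largest changes were in Jag1 (1.79), Ccnd1 (1.61) and Myc (-1.08), and Lef1 was higher (0.86, SE 0.17, adjusted p = 0.00635). Mitf was not called there (-0.03, SE 0.04, adjusted p = 0.593), nor was Tcf7 in either comparison (-0.39, adjusted p = 0.0668, and -0.42, adjusted p = 0.0653), although its adjusted p in CypD KO was 0.0462 without Control replicate 1 and 0.0446 without Control replicate 2, and in the CypD OE-labelled libraries 0.0368 without Control replicate 2. After median-of-ratios rescaling, limma called Mitf (-0.14, adjusted p = 0.0204) and Tcf7 (-0.48, adjusted p = 0.0357) lower in CypD KO. Nkd1 was listed at 0. These transcripts moved in both directions within each comparison.

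**Figure D4:**
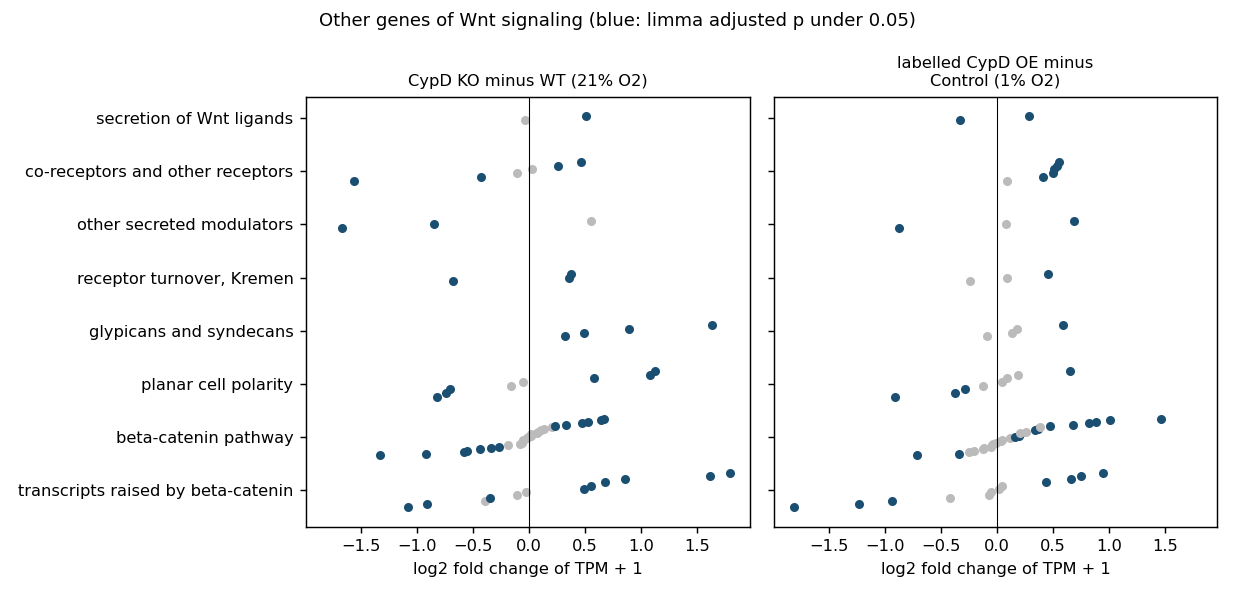
Log2 fold change of TPM + 1 (x axis) of the 65 tested genes in 8 other lists of the Wnt pathway, in CypD KO against WT (left) and in the CypD OE-labelled libraries against Control (right); each point is a gene, dark where the adjusted p was under 0.05. Points lie on both sides of 0 in most lists, with Axin2 at -1.81 the lowest on the right and Jag1 at 1.79 the highest on the left.

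In Control against WT, several genes of the same lists were called. Ctnnbip1 (-0.80), Igfbp4 (-0.76), Axin1 (-0.73), Tcf7l1 (-0.57), Tcf7 (-0.57), Sdc1 (-0.48), Znrf3 (-0.39), Frzb (-0.35) and Tmed5 (-0.30) were among the 15 called lower, and Sdc4 (0.64), Axin2 (0.44), Mitf (0.43), Daam1 (0.35) and Gpc1 (0.17) among the 7 called higher. The 22 calls came to 10 without Control replicate 1 and to 11 without Control replicate 2, WT replicate 1 or WT replicate 2. Several of the calls named ended with 1 library left out, their highest adjusted p being 0.0994 for Frzb (without Control replicate 1), 0.172 for Znrf3 and 0.1 for Daam1 (without WT replicate 1), and 0.104 for Gpc1, 0.143 for Axin1 and 0.14 for Tcf7 (without Control replicate 2). The Axin2 call (adjusted p = 0.0496) was lost with any WT, Control or CypD KO library left out, at adjusted p of 0.0749 without CypD KO replicate 1 to 0.192 without WT replicate 2. No co-receptor was called in this comparison by limma, 2 of the 6 tested having an unadjusted p under 0.05.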

How the data were processed

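RNA was sequenced in 8 libraries of B16F10 cells, 2 in each of 4 groups taken from the labels. The authors prepared total RNA with ribosomal depletion, used Cutadapt 3.4 for trimming, STAR 2.7.8a for alignment to GRCm39 and RSEM 1.3.1 for quantification, and deposited a single table of TPM per gene, in which reads shared by near-identical genes are divided by estimate. The labels and the study's methods name different RNA extraction kits. The authors' own test was DESeq2 1.26.0 on read counts, which a TPM table does not allow.

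Here log2(TPM + 1) was fitted with limma 3.58.1 (R 4.3.3; a mean for each of 4 groups, eBayes with trend, two-sided, Benjamini-Hochberg over 13526 genes with at least 1 TPM in 2 or more libraries, threshold 0.05). On simulated data with 200 of 13526 genes changed by 1 log2 unit, 77.5% were recovered for CypD KO against WT, 70.5% for CypD OE against Control and 75% for Control against WT. Calls among the unchanged genes numbered 6, 11 and 7. Far more genes were called in the real comparisons, so these rates do not carry over to them. With 2 libraries a group, an exact permutation test of a single value cannot go below p = 0.333. Depth was estimated from the TPM steps of low genes with 1 annotated transcript of 600 to 1500 bases, where the implied number of fragments was whole, to a tolerance of 0.15, for 80.6% to 84.4% of values (30% would be so by an even spread). Counting intervals (95%, exact, SciPy 1.17.1) rest on these approximate fragments and cover counting error only. Positions and promoters came from GRCm39 with GENCODE vM39, in which all 44 genes were found. One promoter sequence is not reported here. Figures were drawn with Matplotlib 3.10.9.

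The genes, the other pathway lists and the motifs were chosen with earlier results of these data known. Every tested gene of the set was named with all its values, as were untested genes that reached 0.3 TPM. In each pathway list and comparison, up to 3 called genes with the largest change and no overlap between groups were named, beside Lrp5, Lrp6, Ror1, Ror2, Porcn, Wls, Rnf43, Znrf3, Kremen1, Frzb, Wif1, Ctnnb1, Axin2, Nkd1, Lef1, Tcf7, Tcf7l2 and Mitf. Alternatives were another pseudocount (0.1), no filter, a stricter filter (5 TPM), rescaling by median of ratios, only the 4 libraries compared, a replicate block, eBayes without trend, and leaving out each library.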

Additional observations from a re-analysis of the deposited data

How the results depend on the processing

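Of 14 calls in the set, 7 stayed calls with the same sign under every alternative that tested them: Wnt9a and Fzd7 in CypD KO, and Fzd7, Fzd9, Lgr4, Dkk3 and Sfrp4 in the CypD OE-labelled libraries. Leaving out a library kept the filter made from all libraries. Wnt9a, Fzd9 and Sfrp4 passed that filter only through groups where they are high, so their staying called adds no separate support. A filter of 5 TPM left 5 genes of the set to test. It gave 1 call in CypD KO against WT, 0 higher and 1 lower, 4 calls in the CypD OE-labelled libraries against Control, 3 higher and 1 lower, and 1 in Control against WT, lower. Fitting only the 4 libraries of each comparison gave 3 calls in CypD KO, 1 of them lower, and 1 in Control against WT, lower, while for the other pathway genes it gave 11 calls in Control against WT, 2 higher and 9 lower; the cause was not tested. With no filter on low TPM, 33 genes of the set were tested, and Control against WT called 1 of them, lower. The CypD OE-labelled libraries against Control then had 7 calls, 4 higher and 3 lower, and the lower ones included a gene that the main filter left out. Median-of-ratios rescaling moved the median log2 fold change of all tested genes in CypD KO against WT from 0.089 to -0.007. There it ended the higher calls of Fzd5 (0.28, adjusted p = 0.0941), Lrp6 (0.15, adjusted p = 0.0909) and Kremen1 (0.26, adjusted p = 0.0833). It called Fzd1, Tcf7 and Mitf lower.

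Leaving out 1 library gave 2 to 4 calls in CypD KO (1 to 2 higher, 1 to 2 lower), 5 to 7 in the CypD OE-labelled libraries (3 to 5 higher) and 0 to 2, all lower, in Control against WT. The 22 calls among other pathway genes in Control against WT came to 10 to 19 (2 to 7 higher, 8 to 13 lower). Ppif passed the threshold without a CypD KO library, at 0.19 in CypD OE against Control (adjusted p = 0.0325 and 0.033) and at -0.21 in Control against WT (adjusted p = 0.0388 and 0.0396), its range without 1 library being 0.16 to 0.23 and -0.25 to -0.17.

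The sign turned for values that were not called, and the range over all values without 1 library is given where a sign turned in it. In CypD KO this held for Dkk3 (-0.06 after rescaling, -0.03 without CypD KO replicate 1, range -0.03 to 0.12), Fzd4 (0.08 without WT replicate 2, range -0.14 to 0.08), Lgr4 (-0.09 after rescaling, -0.04 without WT replicate 1 or CypD KO replicate 1, range -0.04 to 0.06) and Mitf (0.01 without CypD KO replicate 2, range -0.07 to 0.01). In CypD OE it held for Lgr6 (0.13 without Control replicate 2, 0.11 without CypD OE replicate 1, range -0.21 to 0.13) and Lef1 (0.10 without CypD OE replicate 2, range -0.21 to 0.10). In Control against WT it held for Dkk3 (0.01 without WT replicate 1 or Control replicate 1, range -0.02 to 0.01), Lrp5 (-0.02 without Control replicate 1, range -0.02 to 0.10), Ctnnb1 (0.0045 without WT replicate 1, range -0.03 to 0.0045), Tcf7l2 (-0.07 without WT replicate 2, -0.02 without Control replicate 2, range -0.07 to 0.13) and Lef1 (0.01 without WT replicate 2, range -0.19 to 0.01). Of 117 values for single genes, 82 kept their direction and their side of the threshold throughout.

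Under the replicate block the set had 4 calls in CypD KO, 8 in CypD OE and 2 in Control against WT, and the other pathway genes 40, 32 and 18. Same-numbered libraries share only a number: the correlation of their deviations was 0.108, -0.002 and -0.019 in the 3 comparisons.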
